A study of Danio rerio with 10 samples.

Results

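The mir-99, mir-100 and mir-125 families were followed in small RNA libraries of zebrafish liver, as 5 rows of the deposited count table out of 272 rows that name a pre-miRNA and 32266 rows in all. The rule took 3 rows by Ensembl identifier and any row named after 7 further gene copies of these families, and 5 of those names (mir100-1, mir99, mir125a-2, mir125b-1 and mir125b-2) stood on no row. The 5 members are mir100-2 (ENSDARG00000081453), mir125c (ENSDARG00000080508), a row named MIR99A (ENSDARG00000081501), mir125b-3 (ENSDARG00000083557) and mir125a-1 (ENSDARG00000083123). Another 5 rows carry human-style symbols of the same families: MIR99A (ENSDARG00000082197 and ENSDARG00000081315), MIR125B1 (ENSDARG00000081350 and ENSDARG00000080032) and MIR125A (ENSDARG00000081044). They lie outside the rule and are given for comparison.

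The libraries came from male fish of 4 months of age, 1 library per fish. Of the 10 fish, 5 (replicates 6 to 10) carried Tg(fabp10a-pt-beta-cat), which expresses activated β-catenin (ABC) from the hepatocyte promoter of fabp10a, and histology of their livers showed hepatocellular carcinoma according to the methods. The other 5 (replicates 1 to 5) were non-transgenic wild-type siblings (WT) without liver abnormalities. A bulk liver library cannot tell fewer cells of a type from less RNA per cell. Libraries held 1423307 to 2609547 counts in WT and 1236439 to 2408262 in ABC, and pre-miRNAs held 93.1% to 97.5% of them.

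MicroRNAs are short RNAs cut from hairpin precursors, and they lower the output of messenger RNAs that match their seed, a few bases near the 5′ end. miR-99 and miR-100 share a seed and are known in mammalian cells for acting on mTOR and insulin-like growth factor signalling. The miR-125 family is related to lin-4 of Caenorhabditis elegans and is known in mammals for roles in blood cells and in liver cancer. Genes of these families often lie in clusters with a let-7 gene, a microRNA that restrains growth programmes in many animals. The RefSeq gene table of the GRCz12tu assembly lists 10 zebrafish genes of the 3 families. Of these, 8 form 4 clusters of 2 family genes and 1 let-7 gene. They pair mir100-2 with mir125b-2, mir125b-3 with dre-mir-99-2, mir100-1 with mir125b-1, and dre-mir-99-1 with mir125c. The remaining genes, mir125a-1 and mir125a-2, each neighbour a let-7d gene.

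Names in the count table need care. The table holds 10 rows of the families, as many as RefSeq has genes, but 3 rows are named MIR99A where RefSeq has only 2 mir-99 genes, and no row is named mir100-1. Which row is which copy was not settled here. Copies such as those of mir-125b give the same mature microRNA, and how reads matching several copies were counted is not given in the sources used here, so the division of counts among copies is uncertain. Counts are per row and not per length.

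With the main scaling of the libraries, given below, the clearest changes were decreases. In ABC compared to WT, mir125c fell 3.05-fold and mir100-2 fell 2.17-fold, while the MIR99A row ENSDARG00000081501, which has few counts, rose 2.17-fold. The level of mir125b-3 did not pass the test, and mir125a-1 had too few counts to be tested. Thus 3 of the 5 members were called (1 up, 2 down), and 4 passed the count filter. The member called up passed it through the ABC fish, and is no support for a count of changes. Calls needed an adjusted p-value (padj) under 0.05 and an absolute log2 fold-change (L2FC) of at least 0.5 in edgeR's quasi-likelihood test over the 144 pre-miRNAs tested. Of these pre-miRNAs, 43.1% were called, 23.6% up and 19.4% down, so calls were common in this comparison.

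**Figure D1:**
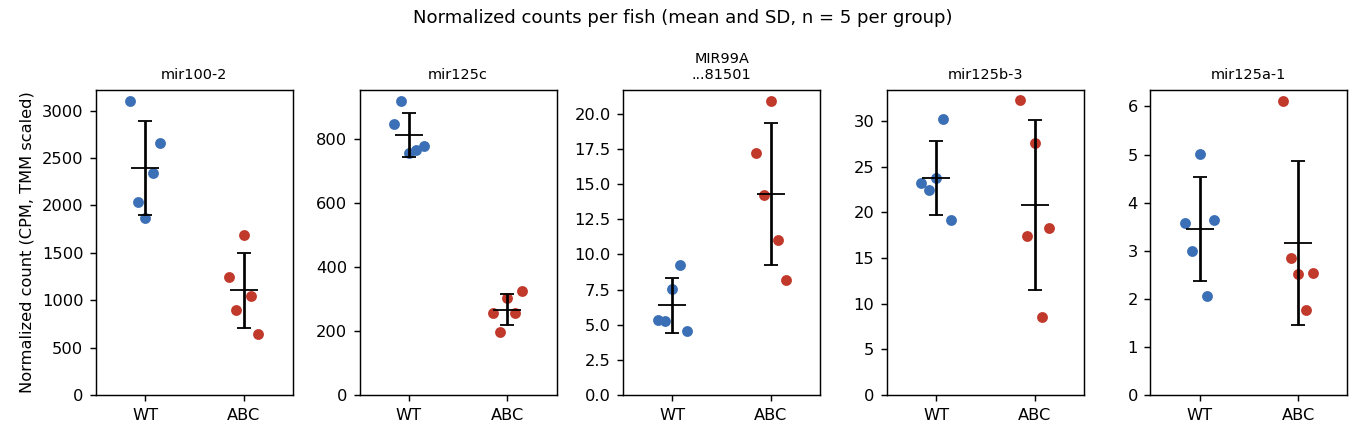
Normalized counts (CPM after TMM scaling, linear axis from 0) of the 5 members in each WT (blue) and ABC (red) fish, with the mean and SD of 5 fish in black. All 5 ABC fish lie below all 5 WT fish for mir100-2 and mir125c, as for 16.7% of all pre-miRNAs tested. The groups overlap for the other 3 members.

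The mir100-2 gene encodes one of the miR-100 hairpins, and its row had the most counts of the members. Its raw counts were 3465, 2718, 2972, 4568 and 2918 in WT replicates 1 to 5, and 2231, 2832, 2023, 2933 and 1272 in ABC replicates 6 to 10. Raw counts overlapped between the groups, and the comparison therefore depends on how the libraries are scaled. Normalized counts, as CPM (counts scaled to a common library size) after scaling by edgeR's trimmed mean of M values (TMM), were 3099, 2032, 1863, 2339.7 and 2659.8 in WT. In ABC they were 1241, 896, 1692, 1040.1 and 648. On this scale every ABC fish lay below every WT fish, as was so for 16.7% of all pre-miRNAs tested. In either direction, the groups did not overlap for 34.7% of them. The mean was 2399 ± 496 CPM (SD, n = 5) in WT and 1103 ± 394 CPM (SD, n = 5) in ABC. The L2FC was -1.12 (standard error 0.26, padj = 0.00528, edgeR's quasi-likelihood test).

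The scaling weighs on that decrease. One row, ENSDARG00000083634, took 69.8% ± 3.15 (SD, n = 5) of pre-miRNA counts in WT and 38.6% ± 6.23 (SD, n = 5) in ABC. It is read here as mir-122, the dominant microRNA of liver, although the gene name table lists it as mir124-1 and no row is named mir122. TMM factors were 0.662 to 0.826 in WT and 1.04 to 1.57 in ABC. With libraries scaled by the total pre-miRNA count alone, the median L2FC of all tested pre-miRNAs was higher by 0.78, and the L2FC of mir100-2 was -0.40 (padj = 0.130, edgeR's quasi-likelihood test), which is no longer a call. Relative to the median of all tested pre-miRNAs, the L2FC of mir100-2 was -1.01 with TMM and -1.07 with total counts. A change of scaling moves all rows by nearly the same amount, so these values had to be close. They are no separate support for the decrease.

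The mir125c gene, a teleost member of the miR-125 family that neighbours dre-mir-99-1, had the largest decrease of the 9 family rows tested. Its normalized counts were 846, 918, 756, 766 and 778 CPM in WT and 256, 196, 304, 255 and 323 CPM in ABC. The highest ABC fish lay below the lowest WT fish, as was so for 16.7% of all pre-miRNAs tested. The WT fish differed little among themselves. The mean was 813 ± 68.3 CPM (SD, n = 5) in WT and 267 ± 49.7 CPM (SD, n = 5) in ABC, with an L2FC of -1.61 (standard error 0.19, padj = 5.81e-05, edgeR's quasi-likelihood test). This placed mir125c at rank 10 from the lowest L2FC of the 144. Its decrease was also a call with total-count scaling (L2FC -0.84, padj = 0.00747, edgeR's quasi-likelihood test), where 6.94% of pre-miRNAs were called down and 45.1% up.

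The MIR99A row ENSDARG00000081501 moved the other way. It had 6, 7, 12, 18 and 5 counts in WT and 31, 45, 25, 31 and 16 in ABC. Normalized counts were 5.37, 5.23, 7.52, 9.22 and 4.56 CPM in WT and 17.2, 14.2, 20.9, 11.0 and 8.15 CPM in ABC. In this order 4 of the 5 ABC fish exceeded every WT fish, and ABC replicate 10 fell within the WT range. The L2FC was 1.12 (standard error 0.33, padj = 0.0178, edgeR's quasi-likelihood test). Only 2 WT fish, against all 5 ABC fish, reached the level that the count filter asks for, so this row entered the test through the group where it is higher. In 1 fit over all 481 features that passed the filter, its L2FC was 1.09 and its padj 0.0552 (edgeR's quasi-likelihood test), which is not a call. With total-count scaling the L2FC of this row was 1.83 (padj = 4.64e-04, edgeR's quasi-likelihood test), where 45.1% of pre-miRNAs were called up. Its counts were 0.171% to 0.404% of those of mir100-2 in WT and 1.06% to 1.59% in ABC, a description chosen after the values were seen.

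The remaining members belong to mir-125. The mir125b-3 gene, one of several that give mature miR-125b, had 23.3, 22.4, 23.8, 30.2 and 19.1 CPM in WT and 32.3, 17.4, 27.6, 8.51 and 18.3 CPM in ABC. The ABC fish reached both above and below the WT range. Its L2FC was -0.21 (standard error 0.34, 95% interval -0.94 to 0.53, padj = 0.639, edgeR's quasi-likelihood test). That interval holds changes in either direction. The mir125a-1 gene, a source of miR-125a, had 4, 4, 8, 4 and 4 counts in WT and 11, 9, 3, 5 and 5 in ABC, under the count filter in all fish but 1. A difference in mir125a-1 was not detectable at this depth. With every pre-miRNA of at least 1 count in the fit, its L2FC was -0.02 (standard error 0.44).

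Of the rows outside the rule, the MIR99A row ENSDARG00000082197 held the most counts of the families. Its normalized counts were 2697 to 4238 CPM in WT and 1217 to 1581 CPM in ABC, with no overlap, and its L2FC was -1.20 (standard error 0.18, padj = 2.70e-04, edgeR's quasi-likelihood test). The MIR99A row ENSDARG00000081315 also fell, by 0.92 on the log2 scale, from 37.6 to 58.3 CPM in WT to 19.5 to 31.7 CPM in ABC (standard error 0.22, padj = 0.00558, edgeR's quasi-likelihood test). In both rows every ABC fish lay below every WT fish, as was so for 16.7% of all pre-miRNAs tested. With total-count scaling neither was a call, at L2FC -0.41 and -0.13. The other 3 rows did not pass the test. Their L2FC was 0.20 for MIR125B1 ENSDARG00000081350, -0.20 for MIR125B1 ENSDARG00000080032 and -0.39 for MIR125A. Among all 10 family rows, 9 were tested and 5 called (1 up, 4 down), beside 43.1% of all pre-miRNAs called and 19.4% called down. This tally depends on the setting: 3 were called with total-count scaling (2 up, 1 down) and 3 in 1 fit over all features (0 up, 3 down). The background moved as well. With total-count scaling 45.1% of all pre-miRNAs tested were called up and 6.94% down. In 1 fit over all features, 142 of 481 features of any kind were called (84 up, 58 down).

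**Figure D2:**
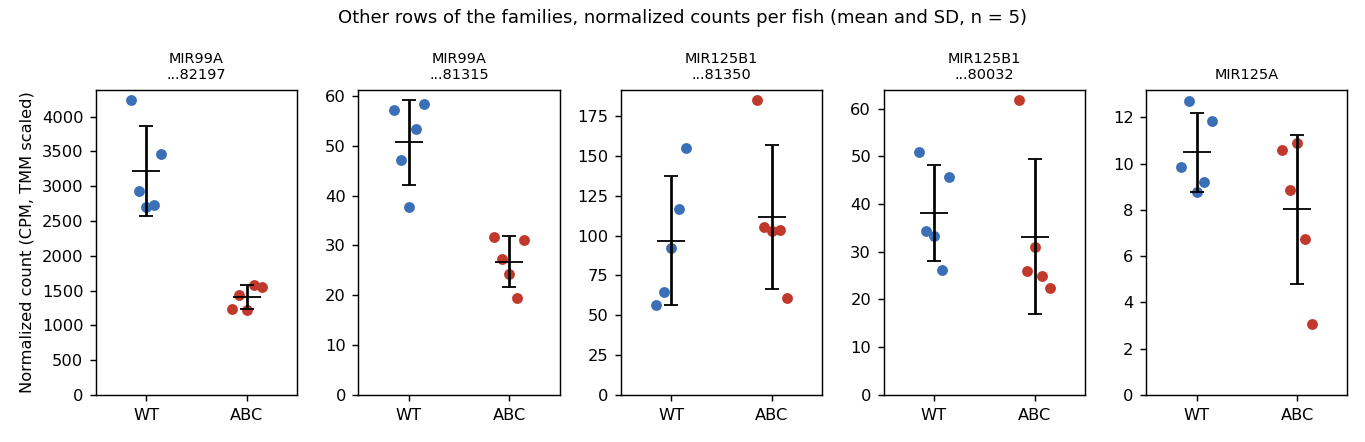
Normalized counts (CPM after TMM scaling, linear axis from 0) of the 5 family rows outside the rule, in each WT (blue) and ABC (red) fish, with mean and SD of 5 fish. Both of these MIR99A rows show no overlap, with ENSDARG00000082197 at 1217 to 1581 CPM in ABC against 2697 to 4238 CPM in WT, and the mir-125a and mir-125b rows overlap. Every ABC fish lay below every WT fish for 16.7% of all pre-miRNAs tested.

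**Figure D3:**
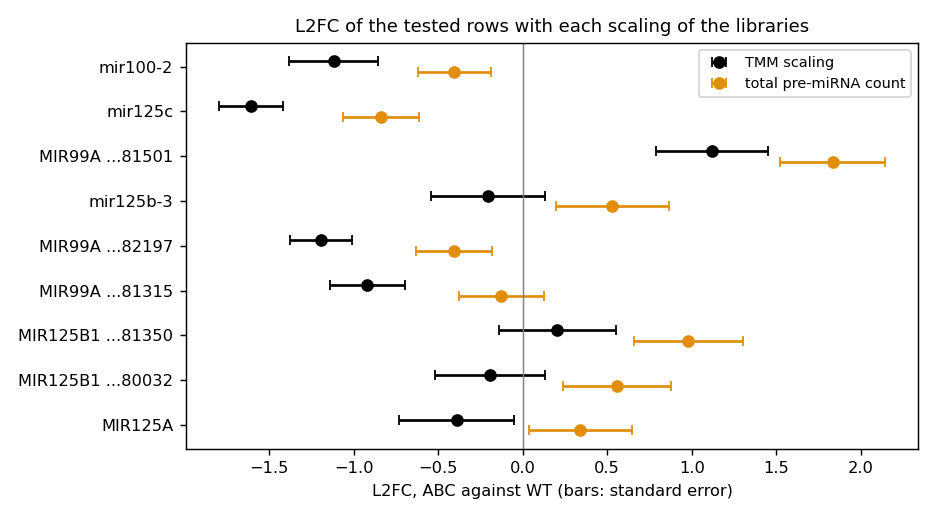
L2FC of ABC against WT with its standard error for the 9 family rows tested, with TMM scaling (black) and with the total pre-miRNA count alone (orange). Every row shifts to the right with total counts, and the rows run from mir125c at -1.61 to MIR99A ENSDARG00000081501 at 1.12 with TMM.

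Within the mir-99, mir-100 and mir-125 counts, 3 rows predominated. In WT, MIR99A ENSDARG00000082197 took 48.1% ± 2.02 (SD, n = 5) of the counts on the 10 rows, mir100-2 35.9% ± 2.20 and mir125c 12.5% ± 2.05. In ABC the same rows took 47.6% ± 9.42, 36.2% ± 9.30 and 8.96% ± 1.87 (SD, n = 5). ABC fish thus varied more than WT fish in how counts divided between the MIR99A row and mir100-2. The counts of mir100-2 were 41.8% of those of that MIR99A row in ABC replicate 10 and 139% in ABC replicate 8, against 69.1% to 85.5% in WT. The 7 other rows together took 2.46% to 4.14% in WT and 5.50% to 11.2% in ABC, with no overlap. As the 3 large rows fell with TMM, a larger share does not mean that the 7 rows rose. The L2FC of those tested ran from -0.92 (MIR99A ENSDARG00000081315) to 1.12 (MIR99A ENSDARG00000081501) with TMM.

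**Figure D4:**
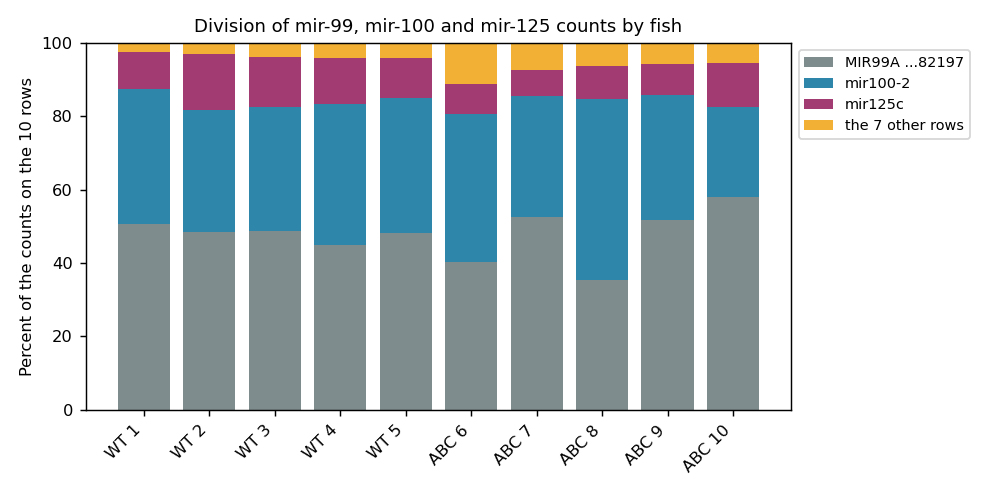
Share of the counts on the 10 family rows, in percent of their sum, for each fish. The 3 rows with the most counts are shown singly and the 7 others together, at 2.46% to 4.14% in WT and 5.50% to 11.2% in ABC. The 3 rows fell with TMM scaling, which raises the share of the others.

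Ratios of rows within a fish do not depend on the scaling. The log2 ratio of mir125c to the sum of the 3 mir-125b rows was 2.69, 2.92, 2.34, 2.14 and 1.82 in WT and -0.13, 0.39, 0.91, 0.90 and 1.66 in ABC. Every ABC fish lay below every WT fish. The difference of the means, ABC minus WT, was -1.64. An exact permutation test, two-sided, gave p = 0.00794, which is the lowest value possible with groups of 5, and 0.0159 after Benjamini-Hochberg adjustment over the 2 ratios tested. The ratio uses the same mir125c counts as the fit above, so it is no separate support for the decrease of mir125c. The mir-125b sum includes 2 rows outside the rule, and MIR125B1 ENSDARG00000081350 holds most of its counts. For the member mir125b-3 alone, counts were 2.44% to 3.94% of those of mir125c in WT and 3.34% to 12.6% in ABC, and the groups overlapped. The log2 ratio of the 2 mir-125a rows to the mir-125b rows was -3.45 ± 0.40 in WT and -3.87 ± 0.25 in ABC (SD, n = 5). The groups overlapped, and the difference of -0.42 did not pass the exact permutation test (two-sided, p = 0.0952, adjusted 0.0952). With each fish left out in turn, the unadjusted p ran from 0.0476 to 0.190 (exact permutation test, two-sided). It was under 0.05 only without WT replicate 4, where the difference was -0.53.

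Sums over the families are given without a test. The log2 ratio of the 4 mir-99 and mir-100 rows to the 6 mir-125 rows was 2.50 ± 0.26 in WT and 2.53 ± 0.24 in ABC (SD, n = 5), and the groups overlapped. When the rows were summed before the fit, the L2FC was -1.19 for mir-99 with mir-100 (standard error 0.18) and -1.19 for mir-125 (standard error 0.19). With total counts these were -0.40 and -0.39. Over all fish, mir125c held most counts of the mir-125 sum (8524), but in ABC replicate 6 the mir-125b rows together held more than mir125c. The decrease of the mir-125 sum was smaller than that of mir125c alone (L2FC -1.61 with TMM). None of the mir-125a and mir-125b rows tested was a call with TMM. All rows of the families took 0.456% to 0.676% of pre-miRNA counts in WT and 0.356% to 0.419% in ABC. With the row read as mir-122 left out of the total, these shares were 1.37% to 2.26% in WT and 0.549% to 0.695% in ABC.

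The let-7 genes share clusters with these families, and the ratio of the families to let-7 was lower in ABC. Relative to the 18 let-7 rows, the mir-99 and mir-100 rows stood at a log2 ratio of -1.79 ± 0.18 in WT and -3.01 ± 0.40 in ABC, and the mir-125 rows at -4.30 ± 0.20 and -5.55 ± 0.51 (SD, n = 5). In both ratios every ABC fish lay below every WT fish. The ratios use the same family counts as the fits above, so they are no separate support for the decreases. Here too mir125c held most of the mir-125 counts over all fish. The rows MIRLET7G and MIRLET7I held 93.3% of the let-7 counts, and RefSeq does not list either of these genes beside a family gene. Of the 12 let-7 rows tested, 1 was called, dre-let-7e with an L2FC of -0.86 (standard error 0.28, padj = 0.0262, edgeR's quasi-likelihood test). Of all pre-miRNAs tested in the same fit, 43.1% were called. With total-count scaling 6 let-7 rows were called, all up, where 45.1% of all pre-miRNAs tested were called up. The direct neighbour of mir100-2, mirlet7a-4, had 3 to 22 counts per fish and an L2FC of -0.81 (standard error 0.47, padj = 0.184, edgeR's quasi-likelihood test). The row mirlet7d-1, the neighbour of mir125a-1, had at most 1 count in any fish. RefSeq places mirlet7c-1 beside mir125c and mirlet7c-2 beside mir125b-3, and no row carries either name. The rows named MIRLET7C held 28 and 10 counts over all fish and were not tested.

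**Figure D5:**
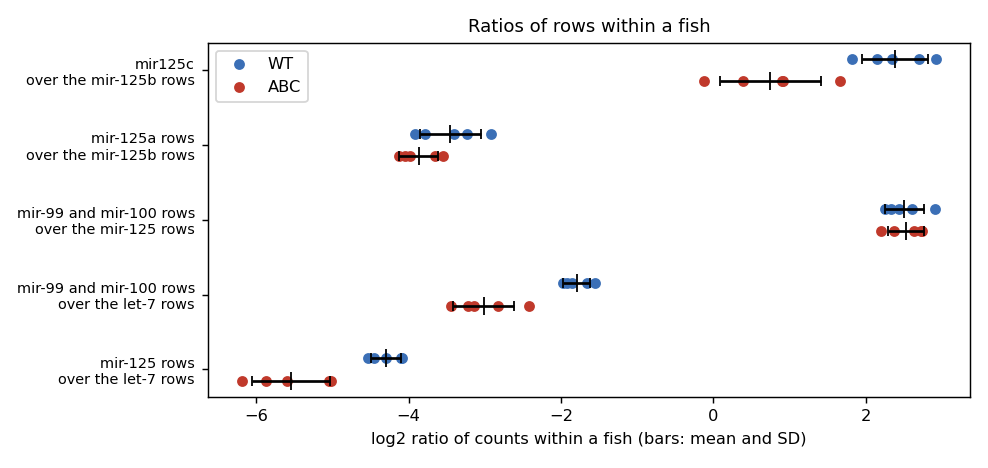
log2 ratios of counts within a fish (x axis) for 5 pairs of rows or sums of rows, in WT (blue) and ABC (red), with the mean and SD of 5 fish. The groups separate for mir125c over mir-125b (means 2.38 and 0.75) and for both ratios to let-7, and overlap for the other 2 ratios.

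The pre-miRNAs outside the families that resembled the called rows most were found by Pearson's r of log2(CPM + 1) over the 10 fish. These values are descriptions, since the points share the scaling of the libraries and the difference between groups. For mir125c they were the row read as mir-122 (r = 0.95, and 0.43 after subtracting each group's mean) and MIR217 (r = 0.94 and 0.41). For mir100-2 they were the same mir-122 row (r = 0.92 and 0.71) and mir22b (r = 0.91 and 0.67). For the MIR99A row ENSDARG00000082197, outside the rule, they were the pancreatic microRNAs MIR216A (r = 0.98 and 0.85) and dre-mir-216b (r = 0.98 and 0.81). For the MIR99A row ENSDARG00000081315, also outside the rule, they were mir10c (r = 0.93 and 0.66) and mir107b (r = 0.92 and 0.57). For MIR99A ENSDARG00000081501 they were mir16b (r = 0.89 and 0.66) and the MIR21 row ENSDARG00000080484 (r = 0.84 and 0.48). Between mir125c and mir100-2 themselves r was 0.82, and 0.05 with the group means removed, so their likeness over the 10 fish followed the difference between the groups.

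Summed markers of exocrine pancreas and of muscle were also lower in ABC, with no overlap, and the other lists overlapped or were at 0. Sums in this paragraph are CPM scaled with the fit over all features, while calls and L2FC are from the fit of pre-miRNAs. Summed over 9 rows of the exocrine pancreas list, normalized counts were 441 to 5806 CPM in WT and 21.9 to 105 CPM in ABC. Its 3 microRNAs tested (MIR216A, dre-mir-216b and MIR217) were all called down. The muscle list (8 rows, 3 of them at 0) stood at 16.4 to 65.0 CPM in WT and 0.954 to 11.6 CPM in ABC. Groups overlapped for the leukocyte list of 5 rows, 1 at 0 and 1 called down (2905 to 6884 CPM in WT, 1531 to 3102 CPM in ABC), the endothelial list of 2 rows, 1 at 0 and none called (835 to 2055 and 1006 to 1629), and the stromal list of 7 rows, 2 at 0 and 1 called down (8309 to 21305 and 5177 to 20254). Within the leukocyte list, mir150 was called down (L2FC -1.56), while MIR223 (L2FC 0.82, padj = 0.0568) and mir155 (L2FC 0.76, padj = 0.0761, edgeR's quasi-likelihood test) had positive values that did not pass the test, so the sum mostly follows mir150. Both rows of the erythrocyte list were at 0 in all fish. Fragments of 12 hepatocyte transcripts were present in both groups, at 742 to 4944 CPM in WT and 201 to 917 CPM in ABC, and the groups overlapped. Summed over fish, raw counts of each of the 12 were lower in ABC. ABC libraries also held fewer counts in all, at a mean of 1761676 against 1903970 in WT. In proportion, this difference was smaller than that of most of the 12 transcripts. Raw counts of tfa were 5176 in WT and 1687 in ABC, those of apobb.1 3824 and 963, and those of hpxa 518 and 64. The counts of fabp10a were 557 in WT and 476 in ABC, and those of TTR only 9 and 8. The part of these tissues in the changes of mir125c, mir100-2 and the MIR99A rows was not tested.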

How the data were processed

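Small RNA of 10 zebrafish livers was sequenced by the authors from NEBNext small RNA libraries as 50 bp single reads, aligned to GRCz10 and counted using miRBase. The submitters' processing notes name Novoalign and featureCounts. The deposited values are raw counts per Ensembl gene and fish without normalization, and 0 columns were left unused. Groups and replicate numbers came from the titles of the samples. Symbols came from a gene name table, and 272 rows name a microRNA gene. No mature sequences are printed, and coordinates were not used beyond which genes neighbour each other within 50 kb in GRCz12tu.

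The main test was edgeR 4.0.16 (R 4.3.3, with limma 3.58.1), using filterByExpr, TMM factors, glmQLFit and glmQLFTest without covariates. P-values of the 144 pre-miRNAs that passed the filter were adjusted after Benjamini and Hochberg. DESeq2 1.42.0 was an alternative. Standard errors were derived from each L2FC and its F statistic. The code was also tested on simulated data of 144 features. There it called 33.3% of changes of 1 log2 unit and 92.3% of changes of 2 log2 units. Of its 34 calls, 2 were false. Ratios used a pseudocount of 0.5 counts and two-sided exact permutation tests, and ratios of family sums were not tested.

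The members, the lists (let-7, hepatocyte, exocrine pancreas, muscle, erythrocyte, leukocyte, endothelial and stromal) and the tests were chosen with earlier results of these data known. The rows outside the rule and the family sums were added after the files were seen. Genes named are all family rows and genes, the RefSeq neighbours of the members, the MIRLET7C rows and the row with the most counts. The pre-miRNAs most similar to the called rows are named as well. Also named are single calls among let-7 and the pancreas list, and the let-7 rows with the most counts. Single rows of the leukocyte and hepatocyte lists are named to show how their sums are made up. Fish are separate animals, but batches of extraction or sequencing are not given in the sources used here. Alternatives tried were other scalings, 1 fit over all features, DESeq2, other filters and thresholds, and leaving out each fish.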

Additional observations from a re-analysis of the deposited data

Results flagged for a closer look

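By Dixon's ratio, 2 of the 30 groups of 5 fish examined held a fish apart from the other 4, where chance gives about 1.5. Both times it was ABC replicate 6. The normalized count of MIR125B1 ENSDARG00000080032 was 61.7 CPM in that fish against at most 30.9 CPM in the other ABC fish. The normalized count of mir125a-1 was 6.12 CPM there, against at most 2.85 CPM in the others, and rests on 11 counts. Without ABC replicate 6, the L2FC of this MIR125B1 row was -0.55 and it was still not a call.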

How the results depend on the processing

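The decrease of mir125c kept its direction and its call under all 18 alternatives, with an L2FC between -1.69 and -1.51 when each fish was left out and between -1.67 and -0.84 otherwise. That of mir100-2 kept them under 17 of 18 (-1.33 to -0.98 without each fish), the exception being total-count scaling (-0.40). The rise of MIR99A ENSDARG00000081501 kept them under 16 of 17 (0.95 to 1.37 without each fish), the exception being 1 fit over all features (1.09). With at least 50 counts in at least 5 fish this row was not tested. It entered the main test through the ABC fish, and the fits without each fish use the same low counts. Its padj in those fits reached 0.0466 (edgeR's quasi-likelihood test). With total-count scaling the L2FC turned positive for mir125b-3 (0.53), MIR125B1 ENSDARG00000080032 (0.56) and MIR125A (0.34), as the median of all tested pre-miRNAs rose by 0.78, and MIR125B1 ENSDARG00000081350 became a call (0.98). Without each fish the last lay between -0.055 and 0.51, and was negative only without ABC replicate 6. MIR99A ENSDARG00000081315 was not a call with upper-quartile factors (-0.75) or in 1 fit over all features (-0.90). The count of members called was 3 without each fish. It was 2 with total counts, in 1 fit over all features and with at least 50 counts in 5 fish. The count of pre-miRNAs called was 54 to 65 without each fish. That count was 75 with total counts, 51 with at least 50 counts in 5 fish and 47 with an absolute L2FC of at least 1. In 1 fit over all features, 142 of 481 features of any kind were called, which is not a count of pre-miRNAs. Calls were 54.8% up with TMM and 86.7% up with total counts. The log2 ratio of the mir-125a rows to the mir-125b rows lay between -0.53 and -0.28 without each fish. Summing rows of 1 mature sequence was not run, since no mature sequences were used here. Ratios of mir100-2 to mir100-1 and of MIR99A to mir99 were not run, as no row carries the second name. No paired analysis was run, because the sample titles give no pairing of ABC with WT fish.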
